A study of Mus musculus with 9 samples.

Results

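The Hist1 locus on mouse chromosome 13 is the main block of replication-dependent histone genes. All 55 protein-coding genes of GENCODE release M1 (mm9) on chromosome 13 with a symbol starting Hist1h were taken, out of 22367 protein-coding genes, and their starts were searched for peaks of the nucleolar protein UBTF. They hold 6 linker histone H1 genes, 14 H2A, 15 H2B, 9 H3 and 11 H4 genes. A gene was counted as having a summit when the highest point of a peak lay within 1 kb of its annotated start.

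The study mapped UBTF by ChIP-seq in pre-B cells from bone marrow of C57BL/6 mice, sorted by flow cytometry. The labels give high B220 with low IgM and IgD for every stage, while the study's methods describe the sorted malignant cells as positive for B220 and negative for IgM and IgD. The 3 stages, each with 2 UBTF libraries, were wild type cells and premalignant cells, both from mice aged 4 to 6 weeks, and malignant cells from mice aged 10 to 20 weeks with spontaneous lymphoma. The premalignant and malignant cells carry Eµ-Myc, a heterozygous transgene in which the immunoglobulin heavy-chain enhancer drives MYC in B cells, so stage and age cannot be told apart in the malignant group. Nor can stage and sex, since the methods name females for the other stages and both sexes for malignant mice. The 2 UBTF libraries of a stage came from separate animals, and the precipitating serum recognised both UBTF1 and UBTF2. The 3 input libraries were not used here, and peak lists hold no expression values with which the sorted cell type could be checked.

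Replication-dependent histone genes are short, mostly lack introns and are transcribed in S phase by RNA polymerase II. Their mRNAs end in a stem-loop in place of a poly(A) tail, and their transcription takes place at the histone locus body, a nuclear body built around the coactivator NPAT. UBTF is an HMG-box protein best known for coating the active ribosomal RNA genes, where it is needed for RNA polymerase I transcription. The core histones H2A, H2B, H3 and H4 form the nucleosome, and H1 binds the linker DNA.

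Before the results, 2 libraries stood apart. Over all protein-coding genes, a summit within 1 kb was 4.19, 3.18, 3.75 and 3.06 times as frequent at the start as at a point 10 kb upstream in wild type 1, wild type 2, premalignant 1 and malignant 1. In premalignant 2 and malignant 2 the same ratio was 1.09 and 1.22, so that their peaks showed little preference for starts over all protein-coding genes together. These lists were also the longest, with 575674 and 563265 peaks against 78113 to 279068 in the others. They also reached to weaker peaks, with a highest deposited false discovery rate of 0.0496 and 0.00361 against 7.31e-05 to 0.000625. The study's methods state default options for all analyses and do not mention settings that differed between libraries, so the reason for this difference is not known. The main counts are therefore given with and without them.

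In the other 4 libraries most Hist1 genes carried a UBTF summit near the start, and many of those summits ranked high in their list. Summits stood at 46 of 55 Hist1 genes (83.6%) in wild type 1, where 32.7% of all protein-coding genes had a summit. In wild type 2 the count was 49 (89.1%) against 40.7% of all genes. Premalignant 1 had 46 (83.6%) against 19.3%, and malignant 1 had 51 (92.7%) against 43.0%. The remaining libraries did not show this difference, with 11 Hist1 genes (20.0%) in premalignant 2 against 28.2% of all genes, and 20 (36.4%) in malignant 2 against 34.8%. The mean share over the 6 libraries was 67.6% of Hist1 genes, and 87.3% without premalignant 2 and malignant 2.

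**Figure D1:**
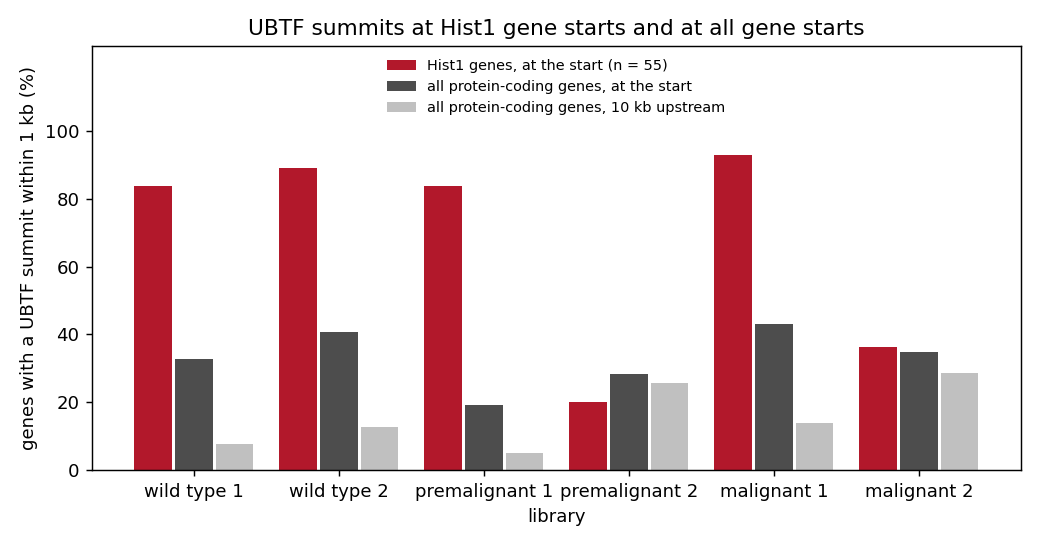
Share of genes with a UBTF summit within 1 kb (vertical axis, percent, from 0) in each of the 6 libraries (horizontal axis). Red bars are the 55 Hist1 genes at their starts, dark bars all 22367 protein-coding genes at their starts and pale bars the same genes at a point 10 kb upstream; each bar is 1 library and has no error bar. The red bar is at 83.6% or more in 4 libraries and at 20.0% and 36.4% in premalignant 2 and malignant 2, where the dark and pale bars are close to each other.

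The same 43 Hist1 genes had a summit in every one of these 4 lists, that is 78.2% of them, against 13.0% of all protein-coding genes. Across all 6 lists, 7 genes had a summit in every list, 13 in 5, 26 in 4, 1 in 3, 3 in 2, 3 in a single list and 2 in none. The 9 genes with a summit in at most 3 lists were Hist1h1a, Hist1h1b and Hist1h1t of the H1 class, Hist1h2aa, Hist1h2ba and Hist1h2be, and Hist1h4b, Hist1h4c and Hist1h4d.

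Rank was read as the percentile of the best summit, 100 times its rank by the deposited peak score over the number of peaks, so that low values are strong peaks and a gene without a summit counts as 100. The median over all 55 genes was 16.2 in wild type 1, 9.07 in wild type 2, 7.96 in premalignant 1 and lowest, at 1.42, in malignant 1. It was 100 in premalignant 2 and malignant 2, where most members had no summit. Among the genes with a summit, the median was 14.3, 8.57, 6.14 and 1.32 in those 4 libraries, where all genes with a summit had medians of 49.7, 44.7, 48.7 and 40.6. In premalignant 2 and malignant 2 the order turned, with 58.9 and 57.7 for Hist1 genes against 32.2 and 27.0 for all genes with a summit.

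The best 10% of a list held few genes of any kind and many Hist1 genes. In wild type 1 it held 14 of the 55, against 1.65% of all protein-coding genes. Wild type 2 had 29 there against 2.21%, premalignant 1 had 33 against 1.19%, and malignant 1 had 41 against 6.21%. No Hist1 gene reached it in premalignant 2, against 4.87%, or in malignant 2, against 9.0%. When every list was shortened to its best 78113 peaks, 43, 44, 46 and 45 Hist1 genes kept a summit in the former 4 libraries and none did in premalignant 2 or malignant 2. The same shortening left a summit at 23.1%, 18.8%, 19.3% and 16.5% of all protein-coding genes in those 4 and at 6.59% and 11.4% in premalignant 2 and malignant 2.

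**Figure D2:**
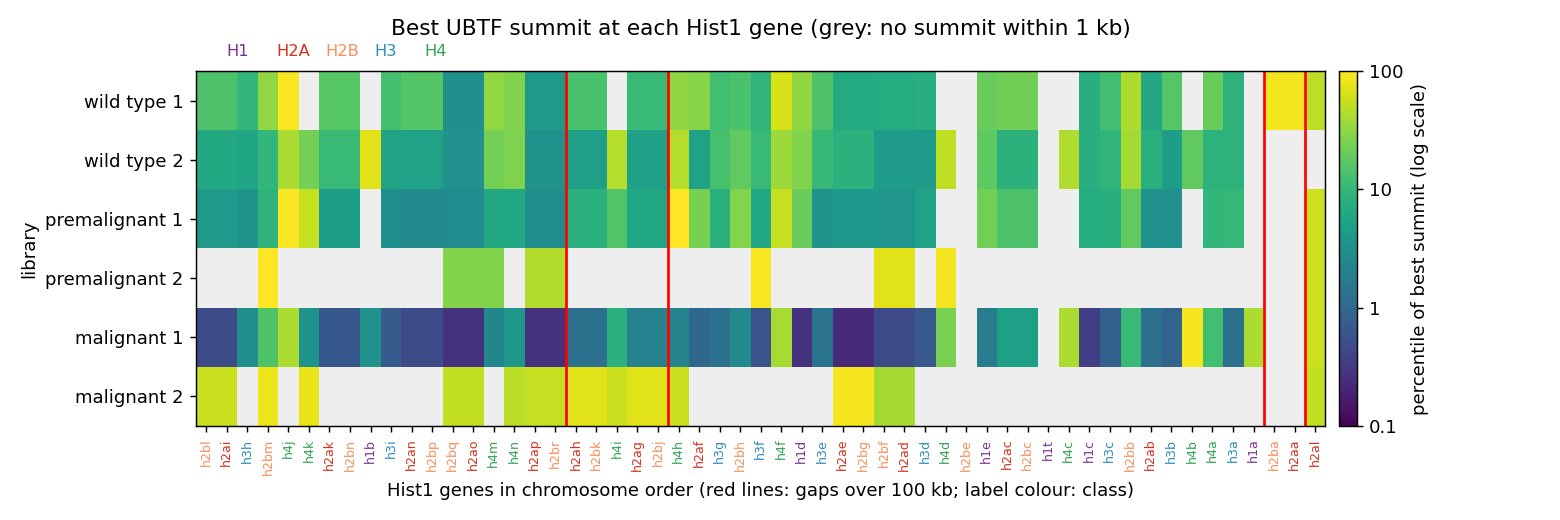
Percentile of the best UBTF summit (colour, log scale, dark is strong) at each of the 55 Hist1 genes in chromosome order (horizontal axis, label colour by class) in each library (vertical axis); grey marks genes without a summit within 1 kb. Red lines mark gaps of more than 100 kb between neighbouring starts. The malignant 1 row is the darkest, premalignant 2 and malignant 2 are mostly grey, and Hist1h1t and Hist1h2be are grey in every row.

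The promoters and summit stretches of the best-ranked gene of each class, and the promoter of Hist1h1t with no summit in any list, are shown so that the position of the UBTF signal can be read against the promoter elements. All are mm9 sequence in the direction of the named gene. For the H2A/H2B pair Hist1h2ao and Hist1h2bq, whose starts face away from each other, the 167 bases between the starts are given in the direction of Hist1h2ao. Capitals mark promoter elements, searched on both strands. These are the TATA box, with the letters TATAAA, then the CCAAT box, then the octamer ATTTGCAT, which POU factors bind, and the H1 box, spelled AAACACA.
Hist1h1c promoter, chr13:23830426-23830675, + strand: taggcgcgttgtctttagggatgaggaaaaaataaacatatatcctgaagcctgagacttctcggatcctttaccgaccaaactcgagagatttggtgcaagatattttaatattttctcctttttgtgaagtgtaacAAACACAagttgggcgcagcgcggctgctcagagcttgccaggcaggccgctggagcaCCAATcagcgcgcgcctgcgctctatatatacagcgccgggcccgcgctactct
Hist1h2bq and Hist1h2ao, between the starts, chr13:21902069-21902235, + strand: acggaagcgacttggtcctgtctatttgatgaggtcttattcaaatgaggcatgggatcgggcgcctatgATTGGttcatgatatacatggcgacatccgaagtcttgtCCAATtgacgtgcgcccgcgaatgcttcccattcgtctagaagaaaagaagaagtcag
Hist1h3d promoter, chr13:23667382-23667631, + strand: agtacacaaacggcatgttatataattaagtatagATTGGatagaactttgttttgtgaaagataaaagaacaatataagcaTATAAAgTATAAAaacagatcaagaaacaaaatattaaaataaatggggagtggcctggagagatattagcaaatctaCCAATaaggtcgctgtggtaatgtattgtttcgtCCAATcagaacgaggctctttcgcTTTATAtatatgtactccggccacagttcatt
Hist1h4a promoter, chr13:23853100-23853349, - strand: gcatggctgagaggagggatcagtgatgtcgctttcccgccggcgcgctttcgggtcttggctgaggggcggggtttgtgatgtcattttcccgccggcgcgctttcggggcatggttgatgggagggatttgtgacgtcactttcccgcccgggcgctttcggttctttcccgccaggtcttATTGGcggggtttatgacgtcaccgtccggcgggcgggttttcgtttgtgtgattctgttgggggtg
Hist1h1t promoter, chr13:23787430-23787679, + strand: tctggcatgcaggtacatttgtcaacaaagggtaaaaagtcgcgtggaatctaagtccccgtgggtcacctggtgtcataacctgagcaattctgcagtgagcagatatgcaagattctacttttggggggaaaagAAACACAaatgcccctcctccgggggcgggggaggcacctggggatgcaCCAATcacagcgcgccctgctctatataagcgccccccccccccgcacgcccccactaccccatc

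The summits themselves lay inside the genes. Below are 61 bases around the best-ranked summit that lay 50 to 350 bp downstream of the start, with the summit base in capitals.
Hist1h1c, malignant 1, chr13:23830875-23830935, + strand: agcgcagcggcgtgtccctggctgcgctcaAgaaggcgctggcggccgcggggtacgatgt
Hist1h2ao, malignant 1, chr13:21902427-21902487, + strand: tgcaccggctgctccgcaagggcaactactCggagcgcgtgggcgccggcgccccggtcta
Hist1h3d, malignant 1, chr13:23667773-23667833, + strand: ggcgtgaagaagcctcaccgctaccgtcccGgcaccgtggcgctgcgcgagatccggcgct
Hist1h4a, premalignant 1, chr13:23852894-23852954, - strand: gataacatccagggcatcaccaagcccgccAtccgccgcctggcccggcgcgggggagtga

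Many genes share a summit, because H2A and H2B genes stand head to head. The 46 Hist1 genes with a summit in wild type 1 used 35 distinct summits, and the 51 in malignant 1 used 41. Annotated coding sequence of a Hist1 gene held 34 of 35 distinct summits in wild type 1, 36 of 38 in wild type 2, 34 of 35 in premalignant 1, with 38 of 41 in malignant 1. In premalignant 2 and malignant 2 it was 5 of 7 and 8 of 13.

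In 4 libraries the best summit lay downstream of the start more often than at genes in general. Downstream summits made up 76.1%, 73.5%, 73.9% and 76.5% of those at Hist1 genes in wild type 1, wild type 2, premalignant 1 and malignant 1, against 60.3%, 61.8%, 61.2% and 66.3% over all genes. The order turned in premalignant 2, with 6 of 11 genes (54.5%) against 60.96% of all, and in malignant 2, with 11 of 20 genes against 60.7% of all. Wild type 1 and 2 had medians of +163 and +171 bp, premalignant 1 of +139 bp and malignant 1 of +166 bp. Over all genes with a summit these medians were +59.5, +87, +83 and +112 bp. Premalignant 2 had +142 bp against +96 bp of all genes, and malignant 2 had +53.5 bp against +91 bp. In wild type 1, wild type 2, premalignant 1 and malignant 1 the best summit lay 50 to 350 bp downstream at 34, 34, 31 and 36 genes. That is 73.9%, 69.4%, 67.4% and 70.6% of the Hist1 genes with a summit, where 30.2%, 32.0%, 30.4% and 36.3% of all genes with a summit had it in that range. In premalignant 2 it was 3 of 11 genes (27.3%) against 32.3% of all genes, and in malignant 2 it was 8 of 20 (40.0%) against 31.2%. Histone genes are short, and no comparison with genes of their length was made.

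**Figure D3:**
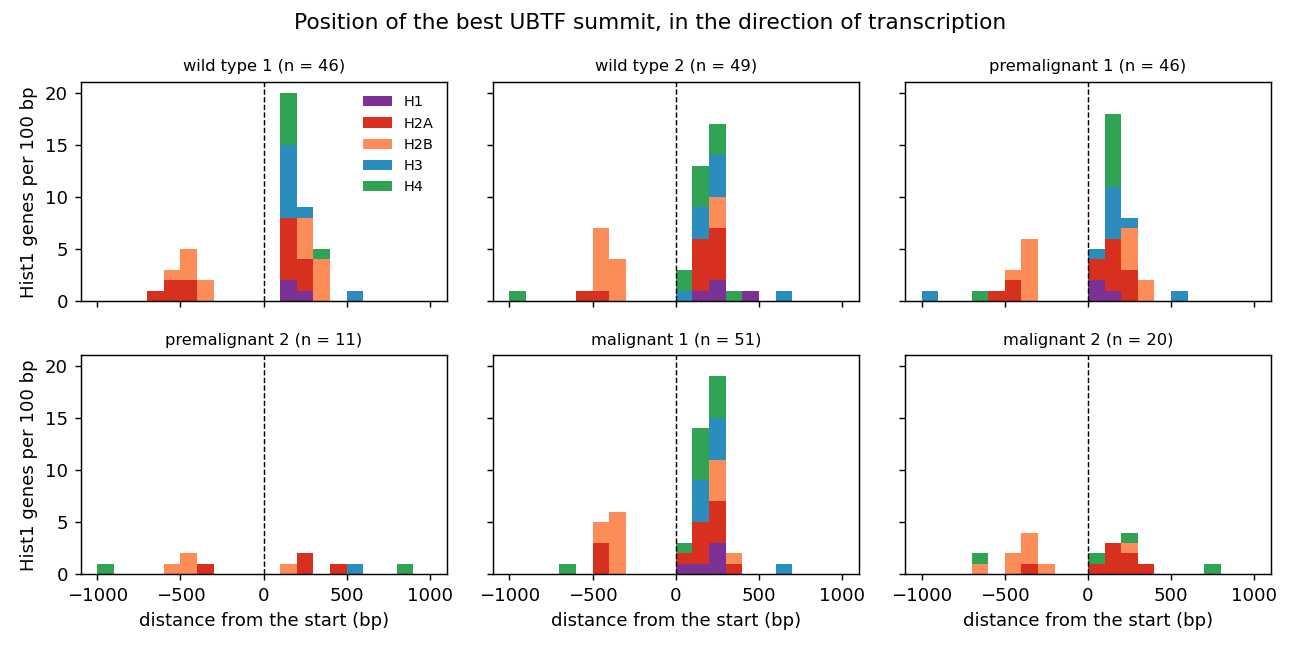
Number of Hist1 genes (vertical axis, per 100 bp) by the distance of their best UBTF summit from the start (horizontal axis, bp, positive in the direction of transcription), stacked by histone class, in each of the 6 libraries; the dashed line is the start. The main group lies downstream of the start, around medians of +139 to +171 bp in 4 libraries, and the upstream group is made almost wholly of H2A and H2B genes.

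The upstream group in that plot came mostly from shared summits: 11 of 11 upstream genes in wild type 1, 11 of 13 in wild type 2, 11 of 12 in premalignant 1, 4 of 5 in premalignant 2, 10 of 12 in malignant 1 and 7 of 9 in malignant 2 shared theirs with another member. The exceptions were Hist1h2bm, Hist1h2bb, Hist1h4h and Hist1h2al. Of 12 head-to-head pairs, 11 join an H2A and an H2B gene whose starts lie 168 to 306 bp apart, and 1 joins Hist1h2bh and Hist1h3f. A summit was shared by both genes in 11 pairs in wild type 1, 10 in wild type 2, 10 in premalignant 1, 3 in premalignant 2, 10 in malignant 1 and 7 in malignant 2. It lay on the H2A side in 6, 8, 7, 3, 7 and 7 of them and on the H2B side in 5, 2, 3, 0, 3 and 0. It never lay between the starts, the stretch printed above for Hist1h2bq and Hist1h2ao.

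Among H2A and H2B genes, which encode the dimer that is exchanged most readily from nucleosomes, the pair Hist1h2ao and Hist1h2bq had the lowest median percentile of all Hist1 genes. Its shared summit stood at 3.18 in wild type 1, 3.29 in wild type 2, 2.92 in premalignant 1, 26.9 in premalignant 2, 0.275 in malignant 1 and 53.1 in malignant 2, a median of 3.23. It was thus near the top of 4 lists and in the middle of the other 2. Its neighbour pair, Hist1h2ap and Hist1h2br, followed with 4.18, 3.40, 3.06, 45.0, 0.273 and 55.2. Both pairs were present in all 6 lists, as was the pair Hist1h2bf and Hist1h2ad, with 7.28, 4.43, 3.67, 73.5, 0.487 and 39.2. As a class, H2A genes had a summit at 14, 12, 13, 4, 13 and 8 of 14 genes in the order wild type 1 and 2, premalignant 1 and 2, malignant 1 and 2. H2B genes had one at 14, 13, 13, 4, 13 and 8 of 15.

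The weakest members of both classes were of a different kind. Hist1h2aa and Hist1h2ba, a pair expressed mainly in testis, shared a summit at percentile 87.8 in wild type 1 and had none in the other 5 libraries. Hist1h2al, which lies alone far along the chromosome at chr13:51298057-51298434, had weak summits at 50.6, 59.6, 58.9, 58.6 and 52.9 in wild type 1, premalignant 1, premalignant 2, malignant 1 and malignant 2 and none in wild type 2. Hist1h2be had no summit in any list, but its annotated record is 37383 bp long, so its start lies far from the position of a usual histone gene.

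H3 genes, which encode the replicative H3 proteins, were the most even class. All 9 had a summit in wild type 1, wild type 2, premalignant 1 and malignant 1, with 1 in premalignant 2 and none in malignant 2. In premalignant 1 the summit counted for Hist1h3b lay upstream, at -988 bp, and was the same as that of Hist1h2ab. Hist1h3d had the lowest median, with 7.61 in wild type 1, 4.55 in wild type 2, 5.42 in premalignant 1 and lowest, at 0.683, in malignant 1. Hist1h3g had the highest, with 12.4, 13.5, 7.96 and 1.30 in the same order. Neither had a summit in premalignant 2 or malignant 2. Within each of the 4 libraries the whole class spanned 7.61 to 16.3, 4.55 to 13.5, 3.18 to 9.91 and 0.601 to 3.08, with no gene beyond 16.3.

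H4 genes, which encode the least variable core histone, had weaker summits than the other Hist1 genes. Counts were 6, 11, 8, 2, 11 and 4 of 11 genes in the 6 libraries. Median percentiles were 93.1 in wild type 1, 36.4 in wild type 2, 54.3 in premalignant 1 and lowest, at 12.3, in malignant 1, against 14.1, 8.15, 6.10 and 1.15 for the other 44 genes. In these 4 libraries the H4 median was always the worse; in premalignant 2 and malignant 2 both medians were 100. Hist1h4a had the lowest median of its class, with 20.2, 8.63, 9.76 and 12.3, but its summit in wild type 2 lay upstream, at -943 bp, inside Hist1h3a. Hist1h4b had summits only in wild type 2, at 18.3, and malignant 1, at 92.2, and Hist1h4c only in the same libraries, at 44.1 and 43.0. Hist1h4d had them in wild type 2, premalignant 2 and malignant 1, at 51.4, 89.5 and 24.8.

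The linker histone class was divided. Counts of H1 genes with a summit were 3, 4, 3, 0, 5 and 0 of 6, a lower share than among the other 49 genes in all 6 libraries, with a mean difference of -29.1 percentage points (SD 11.8, n = 6 libraries), or -27.8 without premalignant 2 and malignant 2. Hist1h1c, encoding the subtype H1.2, stood at 7.52 in wild type 1, 7.53 in wild type 2, 7.18 in premalignant 1 and lowest, at 0.362, in malignant 1. The medians of the 49 core histone genes were 15.7, 8.63, 6.69 and 1.32. It was thus better than their median in wild type 1, wild type 2 and malignant 1 and worse in premalignant 1. Hist1h1d was at 31.7, 27.1, 20.6 and 0.272. Hist1h1e was at 20.2, 18.0, 22.9 and 1.89 in the same order. None of these 3 had a summit in premalignant 2 or malignant 2. Hist1h1b had summits only in wild type 2, at 73.6, and malignant 1, at 3.50, and Hist1h1a only in malignant 1, at 43.1. Hist1h1t, the testis linker histone, had none.

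**Figure D4:**
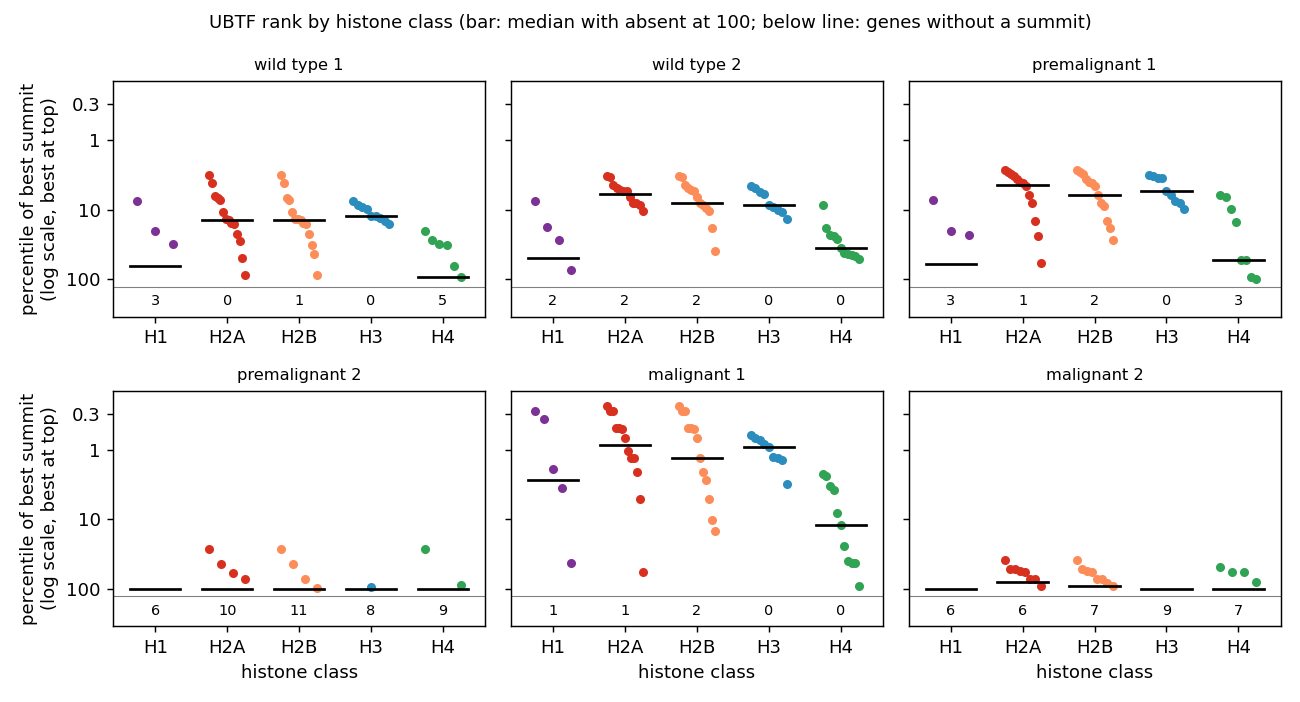
Percentile of the best UBTF summit (vertical axis, log scale with the strongest at the top) for each Hist1 gene with a summit, by histone class (horizontal axis), in the 6 libraries. Each point is a gene, the black bar is the class median with absent genes at 100, and the figures under the grey line count genes without a summit. In wild type 1 and 2, premalignant 1 and malignant 1 all 9 H3 genes are present within a narrow range and the H4 medians, 93.1, 36.4, 54.3 and 12.3, sit below those of H2A, H2B and H3.

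Classes also differed in sequence copy number, which bears on where 50-base reads can be placed. The reads were paired, and placement by both reads of a pair was not examined. Of the 50-base words within 500 bases downstream of the start, the median share found only once in mm9 was 85.7% for H1, 33.1% for H2A, 38.2% for H2B, 35.6% for H3 and 57.1% for H4 genes, against 100% for all protein-coding genes. Upstream of the start the median was 100% for H1, H3 and H4, and 63.6% and 68.7% for H2A and H2B. Within 75 bases of the best summits the median single-copy share was 3.31%, 0%, 19.5%, 0%, 10.6% and 24.8% in the 6 libraries, so that the summits lay mostly on sequence that occurs several times. The pairs Hist1h2ao with Hist1h2bq and Hist1h2ap with Hist1h2br had no single-copy word in either direction.

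Members with much repeated sequence ranked better. All 33 Hist1 genes with under 50% single-copy words had a summit in wild type 1, premalignant 1 and malignant 1, and 32 did in wild type 2. Of the 22 with 50% or more, 13, 17, 13 and 18 had a summit in wild type 1, wild type 2, premalignant 1 and malignant 1. Over the 55 genes, Spearman's rho between the single-copy share and the percentile was 0.589, 0.731, 0.722, 0.356, 0.493 and 0.504 in the 6 libraries, a description across genes that share library and sequence. Among the other protein-coding genes the order was opposite in every list, by little in premalignant 2. Of 1574 with under 50% single-copy words, 11.9%, 21.9%, 7.24%, 27.1%, 21.8% and 30.0% had a summit, against 34.1%, 42.0%, 20.1%, 28.3%, 44.5% and 35.1% of 20738 with 50% or more. The study's methods name bowtie2 with default options, under which a read with several equally good matches is placed at a single one of them, chosen at random.

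Classes could be compared at like copy number only in part, since no H1 gene and 2 H4 genes had under 50% single-copy words. Among the 33 genes below 50%, the 12 H2A, 11 H2B and 8 H3 genes had medians of 12.3, 13.8 and 12.4 in wild type 1, and the 2 H4 genes 30.0. In wild type 2 these were 5.38, 5.39, 7.33 and 25.2, in premalignant 1 they were 4.02, 4.09, 4.47 and 6.44, and in malignant 1 0.760, 0.492, 1.09 and 3.10. The H4 median was the highest of these in all 4 libraries, but rests on 2 genes. Among the 22 genes at 50% or more, the 9 H4 genes had medians of 100, 41.8, 95.3 and 24.8, and the 6 H1 genes 65.8, 50.4, 61.5 and 2.69. Shares of genes with a summit were also averaged over the 6 libraries. When only genes below 50% were kept, the differences from the other members changed. H4 went from -4.92 to 5.38 percentage points, H3 from 1.13 to -15.3, H2A from 11.6 to 5.75 and H2B from 6.39 to 5.30. The negative H3 value came from premalignant 2 and malignant 2, where none of its 8 genes below 50% had a summit. In the other libraries all of these 8 had one, and the H4 value rests on 2 genes. Over all members without premalignant 2 and malignant 2, the differences were -6.82 for H4, 15.2 for H3, 7.49 for H2A and 1.46 for H2B.

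Single genes departed from that order in both directions. Hist1h4m and Hist1h4n had 8.67% and 6.67% single-copy words, and ranked at 32.6 and 27.3 in wild type 1 and 23.9 and 26.6 in wild type 2. In premalignant 1 they followed the order, at 6.69 and 6.18, the best of the H4 genes, and in malignant 1 they stood at 2.38 and 3.83. Hist1h1c had 71.3% and ranked at 7.52 and 7.53 in wild type 1 and 2. In premalignant 1 its best summit, 86 bp downstream, lay on wholly single-copy sequence and ranked at 7.18. Hist1h1d and Hist1h1e, with 64.9% and 65.6%, lay within the range of single-copy shares of most H4 genes, and ranked at 0.272 and 1.89 in malignant 1, where the H4 genes ranged from 2.21 to 92.2. In wild type 1, wild type 2 and premalignant 1 both lay inside the H4 range. Hist1h3f had 100% by this measure, but its record starts farther upstream, its summits lay 505 to 615 bp downstream, and there 21.2% to 75.5% of words were single-copy.

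**Figure D5:**
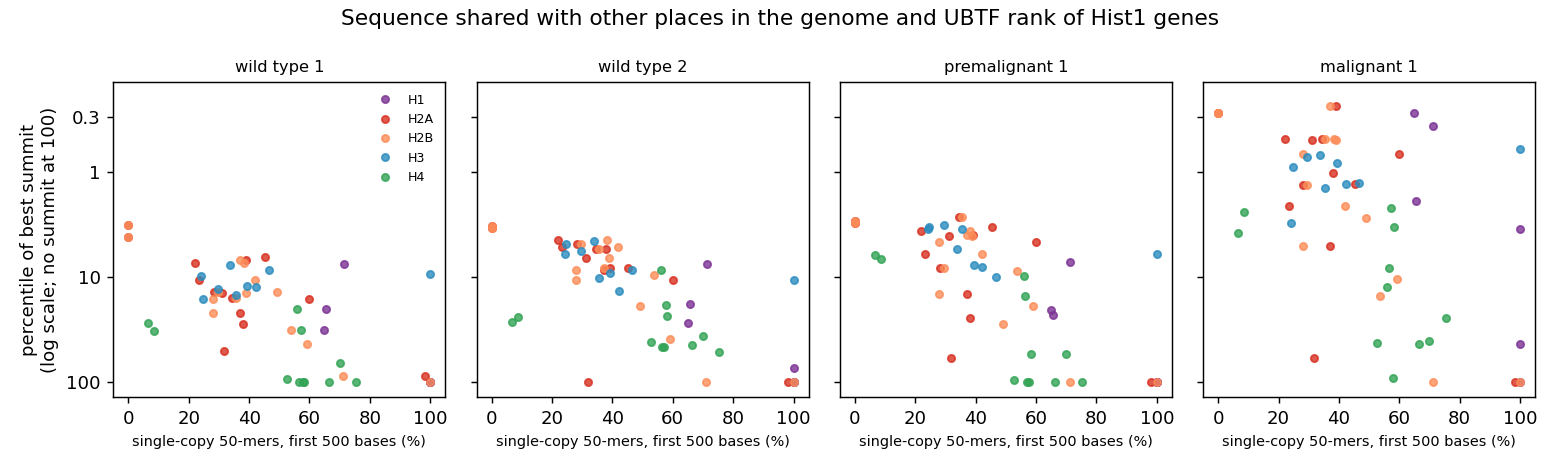
Percentile of the best UBTF summit (vertical axis, log scale, strongest at the top, no summit at 100) against the share of single-copy 50-base words in the 500 bases after the start (horizontal axis, percent) for the 55 Hist1 genes in 4 libraries, coloured by histone class. Points fall from upper left to lower right with rho of 0.589, 0.731, 0.722 and 0.493; premalignant 2 and malignant 2 are not drawn.

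Along the chromosome the genes fall into 5 groups where neighbouring starts are more than 100 kb apart. The first holds 18 genes over 117.6 kb from chr13:21808012, the next 5 genes over 7.57 kb from chr13:22127512, and the third 29 genes over 232.6 kb from chr13:23622919. The last are the testis pair and Hist1h2al. The first group had the higher share of genes with a summit in all 6 libraries, with 16, 18, 17, 6, 18 and 9 of 18, by 15.2 percentage points over the other members on average (SD 4.95, n = 6 libraries), and by 12.7 without premalignant 2 and malignant 2. The second had 4, 5, 5, 0, 5 and 5 of 5, and the third 23, 26, 23, 4, 27 and 5 of 29. Averaged over the 6 libraries, the share was 77.8% in the first group, 80.0% in the second and 62.1% in the third. The first group also holds both pairs without single-copy words and only 1 of the 6 H1 genes, while the third holds 5, and the part of this makeup in the difference was not tested.

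In 4 libraries summits were denser in each of groups 1 to 3 than in any stretch between neighbouring groups from group 1 to group 4. In wild type 1 there were 2.34 summits per 10 kb in the first group, 4.18 in the second and 1.79 in the third, against 0.377 in the 1486 kb between the second and the third and 0.431 over chromosome 13. Wild type 2 gave 2.51, 5.22, 1.92, 0.626 and 0.597 in the same order. Premalignant 1 gave 2.01, 5.22, 1.45, 0.337 and 0.310, and malignant 1 gave 3.01, 5.22, 2.17, 1.47 and 1.03. Against the 1486 kb stretch and the chromosome, premalignant 2 ran the other way, with 1.25, 0 and 1.75 against 3.20 and 2.17. It had 0.550 between groups 1 and 2 and 1.19 between groups 3 and 4. Both values were below groups 1 and 3 and above group 2. In malignant 2, groups 1 and 3, with 1.34 and 1.58, were also below the 1486 kb stretch and the chromosome, with 2.80 and 2.06. Group 2 was above both, with 3.13. All of these groups were above the other stretches, with 0.850 between groups 1 and 2 and 1.31 between groups 3 and 4. In the first group, 67.9%, 63.3% and 55.6% of the summits lay within 1 kb of a member start in wild type 1, wild type 2 and malignant 1, and 18 of 24 summits did in premalignant 1, a window that covers 20.9% of its bases. The share was 20.0% in premalignant 2 and 37.5% in malignant 2.

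Hist1 promoters carried the elements known for histone genes, searched from 250 bases before to 50 after the start. A CCAAT box was found in 46 of 55 (83.6%) against 37.9% of all protein-coding promoters, and a TATA box in 31 (56.4%) against 13.4%. The octamer stood in 5 H2A and 6 H2B promoters (20.0% of all members) against 1.73%, and the H1 box in 5 of 6 H1 promoters and 10 members against 6.42%. Genes with a TATA box had median percentiles of 20.2, 8.63, 8.17 and 1.89 in wild type 1, wild type 2, premalignant 1 and malignant 1, and those without one 14.3, 9.36, 7.39 and 1.36, so the order was not the same in all. A summit stood at 26, 28, 26 and 29 of the 31 with the box and at 20, 21, 20 and 22 of the 24 without. Genes with a CCAAT box had medians of 14.5, 8.36, 7.39 and 1.30 against 65.2, 26.6, 54.3 and 3.83 for the 9 without one, of which 8 are H4 genes. A summit stood at 40, 40, 38 and 42 of the 46 with the box and at 6, 9, 8 and 9 of the 9 without. In premalignant 2 and malignant 2 all these medians were 100. Of genes with and without the TATA box, 4 and 7 had a summit in premalignant 2 and 9 and 11 in malignant 2, and of those with and without the CCAAT box 9 and 2 in premalignant 2 and 16 and 4 in malignant 2.

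Histone genes outside the locus gave a comparison with the same kind of product. For scale, 32.7%, 40.7%, 19.3%, 28.2%, 43.0% and 34.8% of all protein-coding genes had a summit in the 6 libraries. Of 12 Hist2, Hist3 and Hist4 genes, which are also replication-dependent, 10, 10, 10, 1, 12 and 0 had a summit, but only 2 reached the best 10% of the list in premalignant 1 and 5 in malignant 1, and none in the others. Their median percentiles were 49.7, 52.4, 38.3 and 41.4 in wild type 1, wild type 2, premalignant 1 and malignant 1. The best was Hist2h2aa2, at 12.9, 29.0, 11.9 and 1.60. Of 10 replication-independent variant genes, whose mRNAs are made throughout the cell cycle, 6, 7, 2, 7, 8 and 6 had a summit. H3f3a, which encodes H3.3, had one in all 6 libraries, at 21.4, 15.2, 12.8, 41.9, 0.711 and 0.475, and Cenpa, the centromeric H3, had none. Of 13 genes for factors of histone transcription and mRNA processing, 5, 11, 4, 8, 9 and 7 had a summit. Npat had one in wild type 2 and malignant 1 only, at 69.4 and 73.8, and Slbp, whose product binds the stem-loop, in wild type 2, premalignant 1 and malignant 1, at 80.0, 76.1 and 49.4.

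The stage comparison asks whether UBTF at the Hist1 genes changes as Eµ-Myc cells become malignant. A mean of 47.5 ± 2.12 genes had a summit in the wild type libraries (SD, n = 2). The mean was 28.5 ± 24.7 (SD, n = 2) for the premalignant stage and 35.5 ± 21.9 (SD, n = 2) for the malignant stage. The spread within the premalignant and malignant stages was larger than any difference between stage means. With 2 libraries against 2, the exact permutation test cannot give a two-sided p below 0.333 for any gene, so no gene can be called. Without premalignant 2 and malignant 2, premalignant minus wild type was -1.50 genes and malignant minus wild type 3.50 genes, in place of -19.0 and -12.0.

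Few Hist1 genes had stages that did not overlap. Both premalignant libraries ranked worse than both wild type libraries at 5 of 55 genes (9.09%), against 11.6% of all protein-coding genes, and better at none, against 1.84%. The 5 were Hist1h4j, Hist1h4h, Hist1h2bh, Hist1h1e and Hist1h3a. Both malignant libraries ranked better than both premalignant ones at Hist1h4h and Hist1h2al, 2 genes against 9.65% of all genes, and worse at none, against 0.738%. Malignant and wild type did not separate at any Hist1 gene, against 11.1% of all genes ranked better and 5.07% ranked worse in malignant cells. A gene without a summit counts as 100, and premalignant 2 and malignant 2 had one at only 11 and 20 of 55 genes. At the others neither stage could rank better than wild type, so these empty counts cannot show whether stages differ. None of these shares of Hist1 genes was above that of all genes at this window. The share with premalignant worse than wild type was above it with 2 kb, at 14.5% against 13.4%, and with 500 bp, at 10.9% against 9.70%. When only same-numbered libraries were compared, malignant ranked better than premalignant at 27.3% of Hist1 genes against 15.3% of all genes.

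Single libraries can still be set side by side, without a test. The counts in this paragraph compare the plain rank of the best summit, not its percentile, and so depend on list length. Premalignant 1, the shortest list, ranked better than wild type 1 at 44 Hist1 genes and worse at 4. It ranked better than wild type 2 at 45 and worse at 5. Over all protein-coding genes it ranked better at 13.5% and 15.3% and worse at 23.2% and 28.1%. Malignant 1 ranked better than wild type 1 at 46 genes and worse at 7, where all genes gave 25.6% and 23.8%. The wild type libraries differed from each other at 25 genes in favour of wild type 1 and 27 in favour of wild type 2. By percentile they were less even, and wild type 2 had the lower median over all Hist1 genes, at 9.07 against 16.2. The median rank of the best summit, over genes with one, was 16657 for wild type 1, 4795 for premalignant 1 and 3691 for malignant 1. At some genes, such as Hist1h3d and Hist1h2ac, premalignant 1 ranked better than wild type 2 by plain rank and worse by percentile. The second libraries of both stages went the other way. Premalignant 2 and malignant 2 each ranked worse than wild type 1 at 46 Hist1 genes and worse than wild type 2 at 49. Over all protein-coding genes premalignant 2 ranked worse at 29.5% and 35.8%, and malignant 2 at 27.0% and 32.3%.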

How the data were processed

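UBTF ChIP-seq libraries (2 per stage) were analysed from their peak lists, and the 3 inputs were not used. Per the labels and the study's methods, the authors processed reads with CASAVA 1.8.2, aligned 50-base paired reads to mm9 and a ribosomal DNA repeat with bowtie2 (Bowtie in the labels), removed duplicate reads (Picard 1.110) and ran SPP separately on every library to find peaks. The peak score deposited by the authors in the signal column is not scaled between libraries, so it was used only to rank peaks within a list. Read depth per library is unknown, and counts of peaks do not stand in for it, so no counting interval was given.

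Starts came from GENCODE M1 (mm9), which names 55 Hist1 protein-coding genes; Hist1h2aj is a pseudogene there and was left out. A new group of genes was opened at gaps over 100 kb. Copy numbers of 50-base words were counted over both strands of mm9, at every base for Hist1 genes and every 10 bases for others. Python 3.11.15, numpy 2.4.6, pandas 2.3.3 and numba 0.67.0 were used, and the steps were tested on simulated data.

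Shares, medians and counts over Hist1 genes are descriptions without a test. The genes, lists and rules were chosen with earlier results of these data known. Values in all libraries are given for the genes of lowest and highest median percentile in each class and those of testis, and promoters for the lowest of each class and Hist1h1t; other genes were named after their values were seen. The variant H1f0 found no match in the annotation. Alternatives were windows of 500 bp and 2 kb, peak regions over the start, shortened lists, starts of any transcript, ranks without ribosomal DNA peaks, other gaps, each library left out and, chosen after seeing the data, premalignant 2 and malignant 2 left out together or only genes with under 50% single-copy words. The point 10 kb upstream was also added after seeing the data.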

Additional observations from a re-analysis of the deposited data

How the results depend on the processing

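Each of 21 summary values was recomputed under the alternatives, and 248 of 255 recomputed values stayed within 1 SD of the libraries of a stage or, for counts, within 1.5 times. That SD is wide, 34.8 percentage points for the share of Hist1 genes with a summit, because replicates of the premalignant and malignant stages differ, so staying within it says little about stability. The 7 that moved were counts of genes whose stages do not overlap. Malignant ranked better than premalignant at 1 gene with a window of 500 bp and at 1 with peak regions over the start, in place of 2, where 7.33% and 8.28% of all genes did. Premalignant ranked worse than wild type at 8 genes with a window of 2 kb (14.5%), in place of 5, against 13.4% of all genes at that window, and at 6 (10.9%) against 9.70% with 500 bp. With shortened lists both counts were 0, against 1.88% and 5.92% of all genes, and malignant ranked worse than wild type at 3 genes (5.45%) in place of 0, against 6.06% of all genes. The cause was not tested.

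Leaving out each library in turn put the share of Hist1 genes with a summit at 62.5% to 77.1% and its difference from all genes at 28.5 to 43.0 percentage points. The H1 difference stayed between -32.8 and -26.7, while those of H3 (-2.56 to 10.0) and H4 (-8.64 to 1.36) changed sign. Stage differences in the number of genes ranged from -10.5 to 24.5 for malignant minus premalignant, and from -36.5 to -1.5 for premalignant minus wild type. Malignant minus wild type ran from -27.5 to 3.5, being positive without malignant 2. A count of non-overlapping stages needs both libraries of a stage, so only comparisons that do not involve the library left out could be recomputed.

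Same-numbered libraries share only a number: the correlation of their deviations was 0.108, 0.427 and 0.0887 for premalignant with wild type, malignant with premalignant and malignant with wild type, with 2 pairs each. With the replicate number as a block, both malignant libraries ranked better than their premalignant partner at 15 Hist1 genes (27.3%) in place of 2, against 15.3% of all genes under the same block, and the other counts did not move beyond 1.5 times. Without read depth, weak peaks cannot be told from missing ones.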

Other observations

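The stretch of chromosome 13 spanned by the first 4 groups of Hist1 genes also holds 48 other protein-coding genes, 33 of them vomeronasal receptor genes, which encode pheromone receptors of the nose. A summit stood within 1 kb of 4, 8, 3, 6, 5 and 9 of the 48 in wild type 1 and 2, premalignant 1 and 2 and malignant 1 and 2, or 8.33%, 16.7%, 6.25%, 12.5%, 10.4% and 18.8%. Vmn1r188 had a summit in all 6 lists, at percentiles of 12.8, 3.96, 6.75, 15.0, 25.4 and 5.77. Vmn1r206 did too, at 8.90, 6.42, 49.3, 42.7, 57.6 and 5.36. Both ranked better in malignant 2 than any Hist1 gene, whose best there was 39.2. The solute carrier genes of the Slc17a family next to the third group had a summit at 1 of 4 genes in premalignant 2 and 2 of 4 in malignant 2, and at none in the other libraries. These genes were picked after their values were seen.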
